A study of Homo sapiens with 12 samples.

Results

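Nuclear hormone receptors are transcription factors whose activity is set by small lipophilic ligands such as steroids, retinoids, thyroid hormone and fatty acids. They share a zinc-finger DNA-binding domain and a ligand-binding domain, bind DNA as monomers, homodimers or heterodimers with a retinoid X receptor, and recruit coactivators or corepressors. Several members, called orphan receptors, have no established natural ligand. In breast cancer the family is best known for the estrogen and progesterone receptors, which triple-negative tumours lack. Here 42 receptor genes were taken by gene symbol from the 23228 genes counted in each library. They fall into 8 classes by ligand or relationship, and 32 of the 42 passed the filter on low counts.

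The cells were MDA-MB-468, a basal-like breast cancer line without estrogen receptor, progesterone receptor or HER2 amplification, and their polyadenylated RNA was sequenced. The 4 groups received the solvent DMSO, ipatasertib, which blocks the kinase AKT, tazemetostat, which blocks the histone methyltransferase EZH2 of the Polycomb repressive complex, or the 2 drugs together. Every dose was 5 µM, and each group had 3 libraries, named A, B and C. Tazemetostat or DMSO was present from day -5, ipatasertib was given from day 0 in medium with 2% serum that all groups received, and cells were collected after 24 h. The labels do not say whether the libraries came from separate cultures, so p-values measure only the spread between these libraries, which may be technical.

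Between 12981622 and 28746965 reads were counted in genes per library, so that 3 reads correspond to 0.104 to 0.231 CPM, the level relative to the library's total scaled by edgeR's TMM factors. The combination libraries were the shallowest. The share of counted reads assigned to no annotated feature was 19.85% ± 1.43 with DMSO alone, 23.26% ± 1 with ipatasertib, 21.13% ± 1.64 with tazemetostat and 25.21% ± 0.952 with both drugs (SD, n = 3). Whether these reads lay within introns or between genes is not known, and the part of this share in the results was not tested. The A library of each group differed most from its partners: a chi-square statistic per degree of freedom was 2.41 to 3.61 for the B and C pairs and 4.36 to 15.5 for the pairs that hold A. Counts of changed receptors are therefore also given without the A libraries. All 10 markers of breast epithelium were detected in every group, with a summed level of 6710 to 7220 CPM with DMSO, 7350 to 7440 with ipatasertib, 5920 to 6070 with tazemetostat and 5810 to 6470 with both drugs. Beside basal markers the list held KRT8, KRT18, CDH1 and EPCAM, which are not particular to basal cells. KRT8 alone stood at 1650 CPM and KRT18 at 1160 with DMSO, so the sum does not measure basal identity. Within that sum 2 markers rose with each treatment, while 6, 5 and 7 fell with ipatasertib, tazemetostat and both drugs. With both drugs EGFR went from 1060 to 2240 CPM, KRT5 from 1720 to 443 and KRT14 from 220 to 84.5 (means of 3 libraries).

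The levels of the receptors spanned more than 3 orders of magnitude. Per kilobase of exon, NR2F6 (an orphan receptor of the COUP-TF group) stood highest with DMSO, at 54.1 CPM per kb, followed by RXRA (34.8), ESRRA (29.6), NR1H2 (29), VDR (21.9), RXRB (18.7) and NR1D2 (18.2). Among neighbours in this order, ESRRA and NR1H2, and likewise RXRB and NR1D2, differed by less than their spread over libraries. NR3C1, the glucocorticoid receptor, stood at 10.3 CPM per kb. The estrogen receptor ESR1 stood at 0.133 CPM per kb, and RORA was lowest of the tested receptors at 0.0101. Exon lengths came from GENCODE v29 on GRCh38, while the reads were aligned by the authors to hg19, so these levels hold only as far as the gene models correspond.

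**Figure D1:**
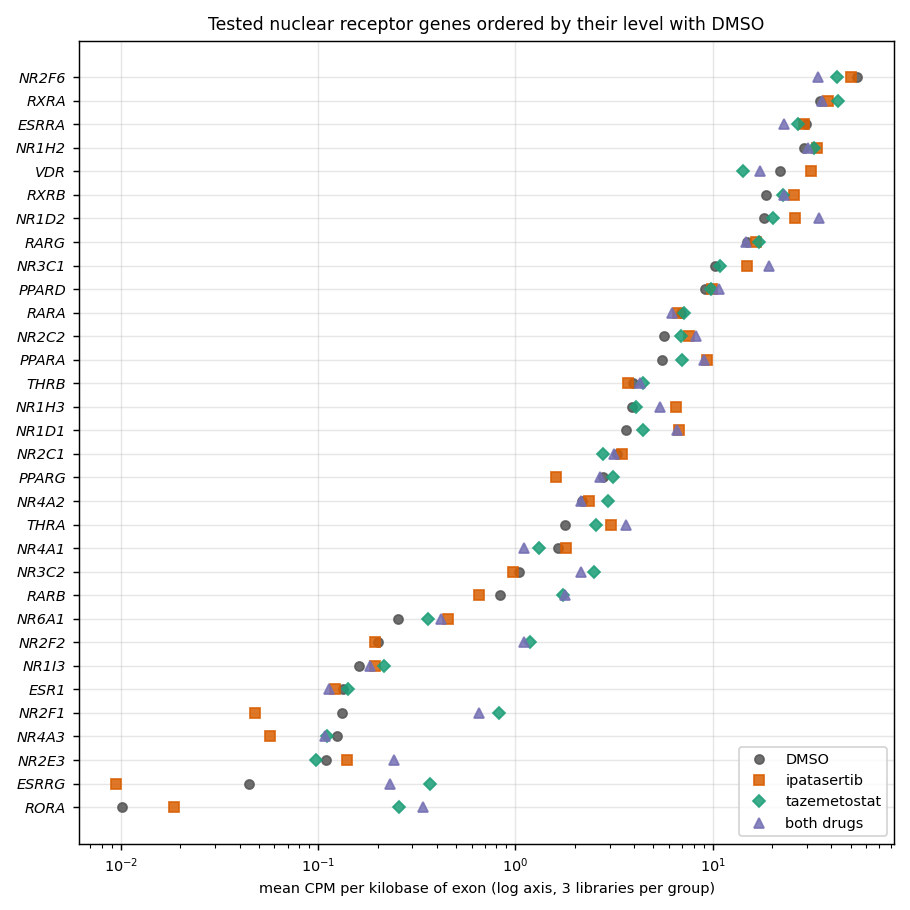
Mean level of each tested receptor gene in CPM per kilobase of exon (log axis, 3 libraries per group), with genes ordered by their level with DMSO. NR2F6 tops the order at 54.1 CPM per kb, and the largest separations between groups are near the bottom, at RORA, ESRRG, NR2F1 and NR2F2.

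Of the 10 receptors that did not pass the filter, 7 had no read in any DMSO library: PGR (the progesterone receptor), ESRRB, RXRG, NR1H4 (the bile acid receptor), NR1I2 (a xenobiotic sensor), RORB and HNF4G. NR1I2 had no read in any of the 12 libraries. A group with no read in a library allows up to 3 reads there, 0.104 to 0.231 CPM depending on the library. PGR received 2, 1 and 1 reads in the tazemetostat libraries and none elsewhere. ESR2, the second estrogen receptor, received 12, 7 and 10 reads with DMSO alone, 9, 6 and 1 with ipatasertib, 4, 10 and 6 with tazemetostat and 7, 5 and 3 with both drugs. HNF4A received 1 to 6 reads in every library except tazemetostat A, which had none. NR5A2 received between 0 and 7 reads in a library.

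Both drugs changed many receptor genes, about as widely as they changed the transcriptome. Of the 32 tested receptors, 11 rose and 3 fell with ipatasertib, where 24% and 23.1% of the 14571 tested genes rose and fell at an adjusted p under 0.05. With tazemetostat 14 receptors rose and 3 fell, against 25.9% and 21.3% of all tested genes. With both drugs 17 rose and 4 fell, against 34.4% and 30% of all tested genes. The median log2 fold change of the tested receptors was 0.14 with ipatasertib, 0.18 with tazemetostat and 0.27 with both drugs, beside 0.00386, 0.00899 and 0.0305 over all tested genes. All counts use edgeR's quasi-likelihood test with Benjamini-Hochberg adjustment over all tested genes.

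These counts lean on the filter for some receptors. ESRRG and RORA exceeded the filter level of 0.441 CPM only in tazemetostat and combination libraries, NR2E3 in all libraries only with both drugs, NR2F1 in no ipatasertib library, and NR4A3 and NR1I3 in some libraries of some groups. Among the 26 receptors that exceeded that level in all 12 libraries, 11 rose and 1 fell with ipatasertib, 11 rose and 3 fell with tazemetostat, and 13 rose and 4 fell with both drugs. Their median log2 fold changes were 0.14, 0.17 and 0.19. Without the A libraries, the numbers of the 32 receptors that rose and fell were 11 and 2 with ipatasertib, 18 and 3 with tazemetostat, and 16 and 5 with both drugs. Shares of all genes from that fit are not set beside these counts. They therefore show only how the receptor calls moved, not whether receptors moved more than other genes. Scaling by library totals alone moved the share of rises among all genes called with tazemetostat from 54.9% to 67.9%, while no called receptor changed direction.

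In all, 26 receptors were called against DMSO with at least 1 treatment. The 6 others were ESR1, the retinoic acid receptors RARA and RARG, the thyroid hormone receptor THRB, the xenobiotic sensor NR1I3 and the immediate-early orphan receptor NR4A3. The matching share of all tested genes was not counted, so the number 26 shows nothing particular to receptors. With both drugs alone 34.4% of all tested genes rose and 30% fell. ESR1 stood at 1.71 CPM ± 0.419 with DMSO alone, 1.56 ± 0.255 with ipatasertib, 1.82 ± 0.0998 with tazemetostat and 1.45 ± 0.499 with both drugs (SD, n = 3). Its log2 fold change with tazemetostat was 0.10, with a 95% interval of -0.36 to 0.57.

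**Figure D2:**
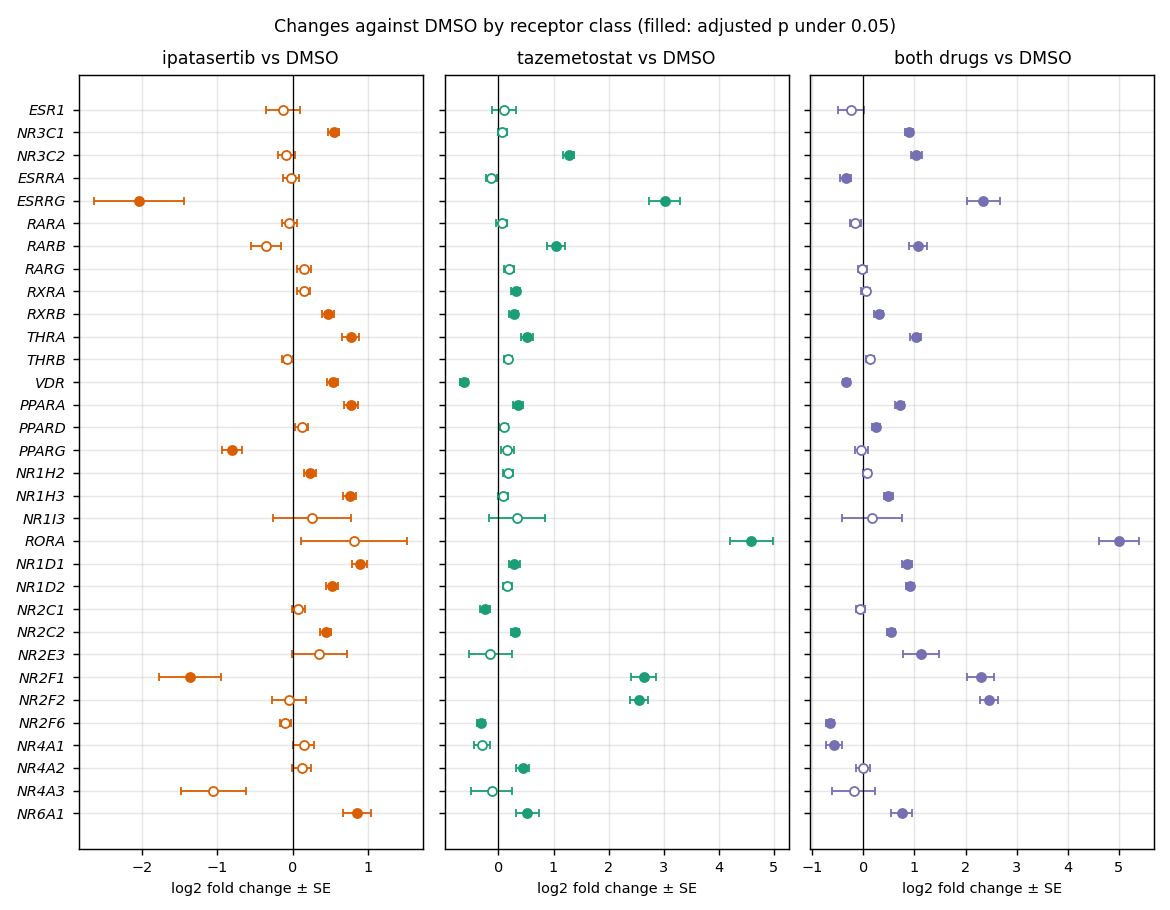
Log2 fold change against DMSO with its standard error for the 32 tested receptors, ordered by class, with ipatasertib, tazemetostat and both drugs in separate panels whose axes differ in range. Filled points passed an adjusted p of 0.05; RORA, ESRRG, NR2F1 and NR2F2 lie farthest to the right with tazemetostat, and VDR lies on opposite sides of 0 with the single drugs.

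Of the 3 tested steroid receptors, 1 rose with ipatasertib, another 1 with tazemetostat, and both of these rose with the combination. NR3C1, the glucocorticoid receptor, stood at 86.8, 85.3 and 81.9 CPM with DMSO alone (libraries A, B and C), 125, 129 and 117 with ipatasertib, 96.9, 82.6 and 87.7 with tazemetostat and 143, 168 and 159 with both drugs. The DMSO and tazemetostat libraries overlapped, the ipatasertib libraries lay above both, and the combination libraries lay above all others. NR3C1 rose 1.46-fold with ipatasertib (log2 0.54, SE 0.074, adjusted p = 3.96e-06) and 1.85-fold with both drugs (log2 0.89, SE 0.075, adjusted p = 9.79e-10). With tazemetostat alone its log2 difference was 0.07 (SE 0.075, adjusted p = 0.448). The combination exceeded ipatasertib alone by 0.34 (log2, SE 0.074, adjusted p = 0.000681).

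NR3C2 encodes the mineralocorticoid receptor, which binds aldosterone and cortisol and governs sodium transport genes in epithelia. Its levels were 6.17, 6.54 and 6.19 CPM with DMSO alone, 6.19, 6.19 and 5.44 with ipatasertib, 15.7, 14.2 and 16 with tazemetostat and 12.2, 12.8 and 13.9 with both drugs. Every library that received tazemetostat exceeded every library that did not. NR3C2 rose 2.42-fold with tazemetostat (log2 1.28, SE 0.1, adjusted p = 6.18e-10) and 2.05-fold with both drugs (log2 1.04, SE 0.11, adjusted p = 1.71e-08). Its log2 difference with ipatasertib was -0.087 (SE 0.11, adjusted p = 0.548).

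The estrogen-related receptors are orphan receptors that drive mitochondrial and oxidative genes, and 2 of the 3 were tested. ESRRG stood at 0.355, 0.363 and 0.259 CPM with DMSO alone, 0.0871, 0 and 0.118 with ipatasertib, 2.83, 2.61 and 2.58 with tazemetostat and 1.33, 1.59 and 2.16 with both drugs. The 4 groups did not overlap, and the ipatasertib values rest on 2, 0 and 3 reads. ESRRG rose 8.1-fold with tazemetostat (log2 3.02, SE 0.28, adjusted p = 8.79e-09) and 5.09-fold with both drugs (log2 2.35, SE 0.32, adjusted p = 1.39e-06). It passed the filter on low counts only through the libraries with tazemetostat, so the p-values of these rises do not stand apart from that selection. It fell with ipatasertib (log2 -2.04, SE 0.59, 95% interval -3.27 to -0.81, adjusted p = 0.00711). With only the DMSO and ipatasertib libraries in the fit, ESRRG did not pass the filter on low counts and could not be tested.

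ESRRA, the abundant member of that class, was at 72.4 CPM ± 2.9 with DMSO and 56.6 ± 10.8 with both drugs (SD, n = 3), a fall of 0.35 on the log2 scale (SE 0.1, adjusted p = 0.0052). The combination libraries were at 69, 49.4 and 51.4 CPM, and library A was the highest of them by far. With either drug alone ESRRA did not pass the test.

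The retinoid receptors include the retinoic acid receptors and the retinoid X receptors, which serve as heterodimer partners across the family. Of 5 tested, 1 rose with ipatasertib, 3 with tazemetostat and 2 with both drugs, and none fell. RARB, itself a well-known target of retinoic acid, stood at 2.77, 2.59 and 2.7 CPM with DMSO alone, 2.44, 2.03 and 1.85 with ipatasertib, 6.45, 5.34 and 4.99 with tazemetostat and 5.21, 7.51 and 4.46 with both drugs. All libraries with tazemetostat lay above all libraries without it. RARB rose 2.06-fold with tazemetostat (log2 1.04, SE 0.17, adjusted p = 2.75e-05) and 2.1-fold with both drugs (log2 1.07, SE 0.18, adjusted p = 1.84e-05).

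Among receptors with a sequence here, only RARB had an upstream window with an exact direct repeat of GTTCAC spaced by 5 bases. This string is a form of retinoic acid response element, and no other form was searched. The search therefore does not show whether the other windows lack such elements. RefSeq lists start sites for 38 of the 42 receptor genes on GRCh38.p14, with 92 windows of 250 bases upstream of them, and has no window here for VDR, NR2F6, HNF4G and NR4A2. Both strands were searched. The repeat occurred in 1 of the 92 windows and in 4 of all 35116 upstream windows (0.0114%), and which start site these cells use is not known from gene counts. The window at chr3:25428013-25428262 (GRCh38.p14, plus strand) is shown because of that repeat, whose 2 hexamers are in capitals and whose first base lies 52 bases upstream of the start.
RARB: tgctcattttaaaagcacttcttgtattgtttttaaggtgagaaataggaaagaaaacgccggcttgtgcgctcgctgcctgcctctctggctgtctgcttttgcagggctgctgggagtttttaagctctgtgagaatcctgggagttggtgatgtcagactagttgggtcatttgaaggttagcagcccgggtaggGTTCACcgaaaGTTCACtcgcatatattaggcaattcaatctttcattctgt

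The other retinoid receptors changed less. RXRA went from 64.3 CPM ± 1.27 to 79.6 ± 8.82 with tazemetostat (SD, n = 3), a rise of 1.24-fold (log2 0.31, SE 0.085, adjusted p = 0.00491). RXRB was at 54.6 CPM ± 2.16 with DMSO and rose 1.38-fold with ipatasertib (log2 0.46, SE 0.083, adjusted p = 9.58e-05), 1.21-fold with tazemetostat (adjusted p = 0.00855) and 1.23-fold with both drugs (adjusted p = 0.00373). The tazemetostat calls rested in part on 1 library. Without tazemetostat B the log2 values were 0.22 for RXRA (adjusted p = 0.0564) and 0.20 for RXRB (adjusted p = 0.0773), and without tazemetostat C that of RXRB was 0.23 (adjusted p = 0.0577). RARA and RARG, at 28.9 CPM ± 1.9 and 51.6 ± 1.81 with DMSO, passed the test with no treatment.

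Among the receptors for thyroid hormone and vitamin D, THRA rose with each treatment and VDR moved in opposite directions. THRA, the thyroid hormone receptor alpha gene, stood at 11.3, 11.4 and 10.7 CPM with DMSO alone, 21.3, 18 and 17.4 with ipatasertib, 14, 18.5 and 14.8 with tazemetostat and 25.4, 20.6 and 21.5 with both drugs. All treated libraries lay above the DMSO libraries, and the ipatasertib and tazemetostat libraries overlapped. THRA rose 1.7-fold with ipatasertib (log2 0.76, SE 0.11, adjusted p = 9.97e-06), 1.43-fold with tazemetostat (log2 0.51, SE 0.11, adjusted p = 0.000846) and 2.03-fold with both drugs (log2 1.02, SE 0.11, adjusted p = 8.14e-08).

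VDR encodes the vitamin D receptor, the nuclear receptor for calcitriol. Its levels were 110, 119 and 123 CPM with DMSO alone, 171, 169 and 167 with ipatasertib, 70.3, 79.9 and 78 with tazemetostat and 101, 91.7 and 87 with both drugs. The groups did not overlap, in the order ipatasertib, DMSO, both drugs and tazemetostat from high to low. VDR rose 1.44-fold with ipatasertib (log2 0.53, SE 0.07, adjusted p = 2.86e-06) and was 1.54-fold lower with tazemetostat (log2 -0.62, SE 0.072, adjusted p = 3.07e-07). With both drugs it was 1.26-fold lower than with DMSO (log2 -0.33, SE 0.072, adjusted p = 0.000384), and it stood 1.22-fold above tazemetostat alone (log2 0.29, SE 0.073, adjusted p = 0.00243).

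Of the 6 tested lipid and xenobiotic sensors, 3 rose and 1 fell with ipatasertib, 1 rose with tazemetostat, and 3 rose with both drugs. PPARA, the fatty acid receptor that drives fat oxidation in liver, stood at 56.9, 57.1 and 52.1 CPM with DMSO alone, 106, 91.4 and 85.2 with ipatasertib, 64.7, 78.9 and 67.9 with tazemetostat and 93.2, 82.7 and 96.2 with both drugs. The DMSO libraries lay below all others and the tazemetostat libraries between DMSO and the groups with ipatasertib. PPARA rose 1.7-fold with ipatasertib (log2 0.77, SE 0.088, adjusted p = 3.9e-07), 1.28-fold with tazemetostat (log2 0.35, SE 0.089, adjusted p = 0.00258) and 1.64-fold with both drugs (log2 0.71, SE 0.09, adjusted p = 4.19e-07).

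PPARG, the receptor that governs fat cell differentiation, went the other way with ipatasertib. It stood at 9.65, 10.2 and 8.85 CPM with DMSO alone, 4.79, 6.19 and 5.52 with ipatasertib, 11.1, 11.2 and 9.77 with tazemetostat and 9.47, 7.58 and 10.7 with both drugs. The ipatasertib libraries lay below all others, and the remaining groups overlapped. PPARG was 1.74-fold lower with ipatasertib (log2 -0.80, SE 0.13, adjusted p = 2.39e-05). With both drugs its log2 difference from DMSO was -0.04 (SE 0.13, 95% interval -0.3 to 0.22, adjusted p = 0.798).

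NR1H3, the liver X receptor alpha gene, encodes an oxysterol sensor. It stood at 14.1, 13.5 and 13 CPM with DMSO alone, 24, 21.8 and 22.8 with ipatasertib, 13.8, 14.6 and 14.6 with tazemetostat and 20.8, 17.5 and 18.5 with both drugs. DMSO and tazemetostat overlapped, the combination lay above both, and ipatasertib alone lay highest. NR1H3 rose 1.69-fold with ipatasertib (log2 0.76, SE 0.086, adjusted p = 3.21e-07) and 1.4-fold with both drugs (log2 0.49, SE 0.091, adjusted p = 6.45e-05). The combination was lower than ipatasertib alone by 0.27 on the log2 scale (adjusted p = 0.0171), a call lost without combination B (log2 -0.22, adjusted p = 0.0856) or C (log2 -0.25, adjusted p = 0.0555).

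NR1H2, the liver X receptor beta gene, was 1.17-fold higher with ipatasertib (60.7 CPM ± 1.41 with DMSO against 70.8 ± 2.45, SD, n = 3; log2 0.22, adjusted p = 0.0296). That call was lost when any single DMSO or ipatasertib library was left out, with log2 values of 0.18 to 0.23 over all leave-outs and adjusted p up to 0.134. PPARD, the remaining PPAR gene, was called only with both drugs (1.19-fold, log2 0.25, adjusted p = 0.0156). Its adjusted p was 0.051 without DMSO A (log2 0.23), 0.06 without DMSO B (log2 0.23) and 0.0646 without combination A (log2 0.20). NR1I3 stood at 0.331 CPM ± 0.274 with DMSO (10, 1 and 16 reads in libraries A, B and C) and passed no test.

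**Figure D3:**
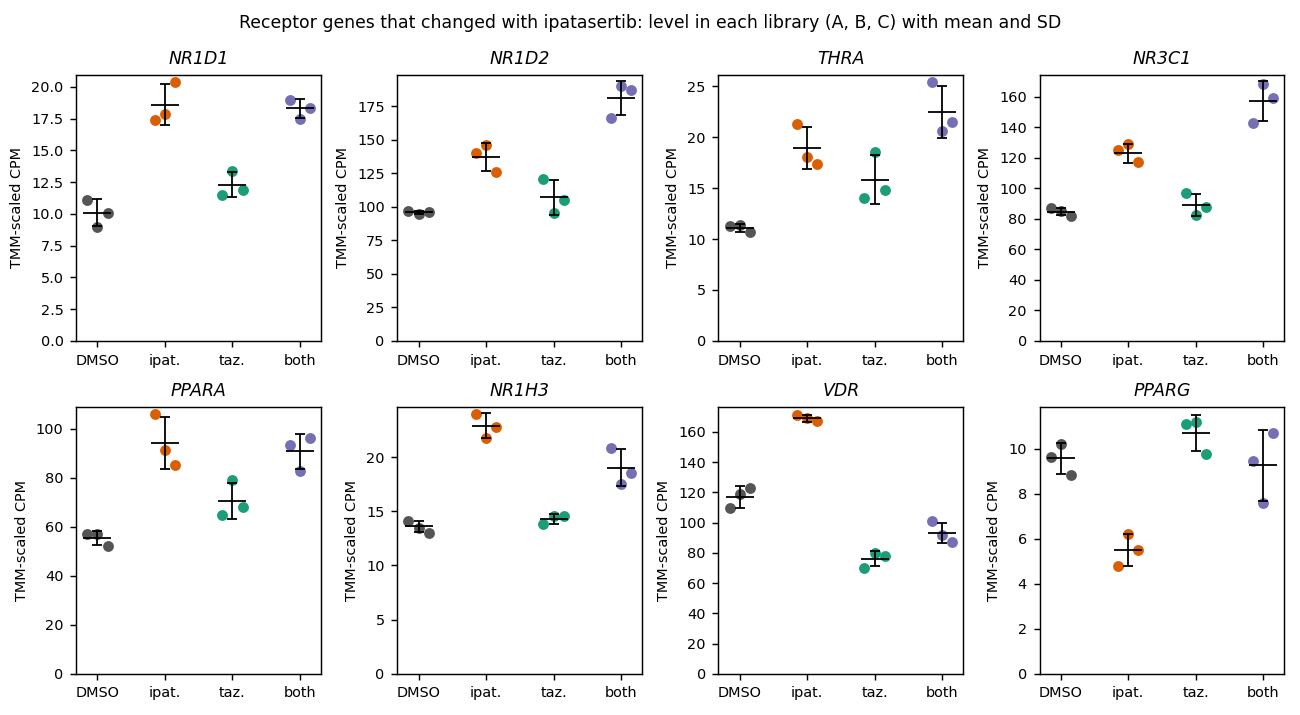
Level in CPM (linear axis from 0) of 8 receptors that changed with ipatasertib, in each library from A to C, with the group mean and SD as bars. NR1D1, THRA and PPARA are above DMSO in all treated libraries, VDR has 4 separate groups, and PPARG is low with ipatasertib alone.

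The clock receptors bind a shared response element in clock genes, where the ROR proteins activate and the REV-ERB proteins repress. Of 3 tested, 2 rose with ipatasertib, 2 with tazemetostat and 3 with both drugs. NR1D1, the REV-ERB alpha gene, stood at 11.1, 8.99 and 10.1 CPM with DMSO alone, 17.4, 17.9 and 20.4 with ipatasertib, 11.5, 13.4 and 11.9 with tazemetostat and 19, 17.5 and 18.3 with both drugs. The groups with ipatasertib lay well above DMSO, while the tazemetostat libraries lay just above it. NR1D1 rose 1.84-fold with ipatasertib (log2 0.88, SE 0.1, adjusted p = 2.98e-07) and 1.81-fold with both drugs (log2 0.85, SE 0.1, adjusted p = 2.46e-07). The rise with tazemetostat was 1.22-fold (log2 0.28, SE 0.1, adjusted p = 0.027), and the call was lost without DMSO B (log2 0.21, adjusted p = 0.149), DMSO C (log2 0.28, adjusted p = 0.0724), tazemetostat B (log2 0.20, adjusted p = 0.186) or tazemetostat C (log2 0.29, adjusted p = 0.0566).

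NR1D1 and THRA lie on opposite strands and share 263 exon bases in GENCODE v29, which are 9.5% of the exon bases of NR1D1 and 4.2% of those of THRA. Whether counting used strand is unknown, so reads from the shared bases cannot be told apart.

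NR1D2, the REV-ERB beta gene, stood at 96.8, 94.8 and 95.9 CPM with DMSO alone, 140, 146 and 126 with ipatasertib, 121, 95.2 and 105 with tazemetostat and 166, 190 and 187 with both drugs. The combination libraries were the highest, above ipatasertib, and DMSO overlapped tazemetostat. NR1D2 rose 1.43-fold with ipatasertib (log2 0.52, SE 0.081, adjusted p = 1.96e-05) and 1.89-fold with both drugs (log2 0.92, SE 0.081, adjusted p = 2.25e-09). The combination exceeded ipatasertib alone by 0.40 (log2, SE 0.081, adjusted p = 0.000376).

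The E-box CACGTG, the element bound by the CLOCK and BMAL partners, was found in 5 of the 92 receptor windows (5.4%) and in 6.3% of all upstream windows of this length. The window of NR1D2 at chr3:23945871-23946120 (GRCh38.p14, plus strand) is shown because it holds 2 copies, in capitals. It is the upstream sequence of 1 of the 2 start sites listed for the gene.
NR1D2: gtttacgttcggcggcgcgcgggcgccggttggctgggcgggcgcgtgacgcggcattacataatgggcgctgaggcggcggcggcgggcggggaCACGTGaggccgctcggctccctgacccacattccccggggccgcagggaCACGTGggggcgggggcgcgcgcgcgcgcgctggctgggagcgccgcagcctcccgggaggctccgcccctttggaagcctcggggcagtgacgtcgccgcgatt

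RORA, the ROR alpha gene, showed the largest fold change against DMSO among the tested receptors. It stood at 0.0709, 0.0908 and 0.185 CPM with DMSO alone (2, 2 and 5 reads), 0.174, 0.267 and 0.197 with ipatasertib, 3.25, 3.25 and 2.37 with tazemetostat and 4.16, 5.31 and 2.3 with both drugs. All libraries with tazemetostat lay far above those without, and the tazemetostat and combination libraries overlapped. RORA rose 24.2-fold with tazemetostat (log2 4.59, SE 0.39, 95% interval 3.78 to 5.41, adjusted p = 3.17e-09) and 32-fold with both drugs (log2 5.00, SE 0.39, 95% interval 4.19 to 5.81, adjusted p = 2.57e-10). The DMSO level was at or near 3 reads per library, so the size of these folds is uncertain beyond the interval of the fit. RORA passed the filter on low counts only through the libraries with tazemetostat, so the p-values of these rises do not stand apart from that selection. With ipatasertib its log2 difference was 0.81 (SE 0.7, adjusted p = 0.362).

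Of the 6 tested orphan receptors of the NR2 group, 1 rose and 1 fell with ipatasertib, 3 rose and 2 fell with tazemetostat, and 4 rose and 1 fell with both drugs. NR2F1, the COUP-TF I gene, which acts in neural development and mostly as a repressor, stood at 0.461, 0.545 and 0.519 CPM with DMSO alone, 0.131, 0.107 and 0.315 with ipatasertib, 2.93, 3.14 and 3.41 with tazemetostat and 2.49, 2.96 and 2.09 with both drugs. The ipatasertib libraries (3, 2 and 8 reads) lay below DMSO, and the libraries with tazemetostat lay above it. NR2F1 rose 6.21-fold with tazemetostat (log2 2.63, SE 0.23, adjusted p = 4.49e-09) and 4.91-fold with both drugs (log2 2.29, SE 0.26, adjusted p = 7.31e-08). It was 2.57-fold lower with ipatasertib (log2 -1.36, SE 0.41, adjusted p = 0.00975), a call lost without the A libraries (log2 -1.21, adjusted p = 0.0615).

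NR2F2, the COUP-TF II gene, which acts in vein and stromal development, was at 1.14, 1.59 and 1.19 CPM with DMSO alone, 1.18, 1.44 and 1.14 with ipatasertib, 8.75, 6.35 and 7.78 with tazemetostat and 6.87, 7.66 and 6.9 with both drugs. The libraries with tazemetostat stood above all others, and those without overlapped. NR2F2 rose 5.86-fold with tazemetostat (log2 2.55, SE 0.17, adjusted p = 3.55e-11) and 5.52-fold with both drugs (log2 2.46, SE 0.18, adjusted p = 5.91e-11). Its log2 difference with ipatasertib was -0.05 (SE 0.23, 95% interval -0.52 to 0.42, adjusted p = 0.874).

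NR2F6, the COUP-TF relative with the highest level per kilobase, fell instead. It stood at 127, 131 and 130 CPM with DMSO alone, 115, 117 and 131 with ipatasertib, 98.5, 102 and 109 with tazemetostat and 90.1, 81.8 and 75 with both drugs. DMSO and ipatasertib overlapped, tazemetostat lay below both, and the combination lay lowest. NR2F6 was 1.25-fold lower with tazemetostat (log2 -0.33, SE 0.073, adjusted p = 0.000928) and 1.57-fold lower with both drugs (log2 -0.65, SE 0.075, adjusted p = 1.1e-07).

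NR2E3, a receptor known from photoreceptors, was low throughout. Its levels were 0.426, 0.318 and 0.296 CPM with DMSO alone, 0.348, 0.427 and 0.552 with ipatasertib, 0.21, 0.336 and 0.374 with tazemetostat and 0.831, 0.683 and 0.766 with both drugs. The combination libraries, with 15, 9 and 11 reads, lay above all others, and the other groups overlapped. NR2E3 rose 2.17-fold with both drugs (log2 1.12, SE 0.35, 95% interval 0.39 to 1.85, adjusted p = 0.00806). It passed the filter on low counts only through the combination libraries, so this p-value does not stand apart from that selection. A filter of 50 counts in 3 libraries left it untested.

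Of the testicular receptor genes, NR2C2 rose with each treatment and NR2C1 was called only with tazemetostat. NR2C2 went from 48.3 CPM ± 1.77 with DMSO to 65.2 ± 4.57 with ipatasertib, 59.3 ± 2.87 with tazemetostat and 70.5 ± 5.55 with both drugs (SD, n = 3). These rises were 1.35-, 1.23- and 1.46-fold, with adjusted p of 6.53e-05, 0.00261 and 1.81e-06, and leaving out any single library removed none of these calls. NR2C1 was 1.18-fold lower with tazemetostat (log2 -0.24, adjusted p = 0.0284). That call was lost with scaling by library totals (log2 -0.17, adjusted p = 0.124) and without DMSO A, DMSO B, DMSO C or tazemetostat C, where the log2 values were -0.25, -0.23, -0.25 and -0.26 and the adjusted p 0.054, 0.0753, 0.0583 and 0.0521.

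The NR4A genes are immediate-early orphan receptors induced by growth factors and stress. NR4A1 was at 6.66 CPM ± 0.553 with DMSO and 4.47 ± 0.264 with both drugs (SD, n = 3), a fall of 0.57 on the log2 scale (SE 0.16, adjusted p = 0.00304). NR4A2 rose 1.35-fold with tazemetostat (8.19 CPM ± 1.08 against 11.2 ± 1.33, log2 0.44, SE 0.12, adjusted p = 0.00601) and stood at 8.18 ± 1.21 with both drugs. NR4A3 had an adjusted p of 0.0504 with ipatasertib (log2 -1.05, SE 0.43). Other receptor genes also share exon bases with neighbours whose reads could not be separated. The shares on the opposite strand were 32.2% of the exon bases of NR1I3 with TOMM40L, 18.6% of NR4A1 with a noncoding gene, 13.4% of RARA with its antisense gene, 11.6% of ESRRA with TRMT112, 8.8% of NR2C2 with MRPS25 and 5.4% of NR1H3 with ACP2. NR2F6 shares 9.2% with a gene on its own strand.

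NR6A1, the germ cell nuclear factor gene, is known for silencing pluripotency genes in embryonic differentiation. It stood at 1.67, 1.95 and 1.78 CPM with DMSO alone, 2.66, 3.36 and 3.67 with ipatasertib, 1.89, 2.99 and 2.74 with tazemetostat and 3.55, 2.5 and 2.86 with both drugs. The ipatasertib and combination libraries lay above DMSO, and the tazemetostat libraries overlapped it. NR6A1 rose 1.8-fold with ipatasertib (log2 0.85, SE 0.19, adjusted p = 0.00101) and 1.68-fold with both drugs (log2 0.75, SE 0.21, adjusted p = 0.00359). The combination call was lost without the A libraries (log2 0.53, adjusted p = 0.0525). The rise with tazemetostat (log2 0.53, adjusted p = 0.0337) was not called by DESeq2 (log2 0.51, adjusted p = 0.0609), nor without DMSO A (log2 0.47, adjusted p = 0.103), DMSO C (log2 0.52, adjusted p = 0.0838), tazemetostat B (log2 0.37, adjusted p = 0.199) or tazemetostat C (log2 0.46, adjusted p = 0.114).

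Tazemetostat thus raised RORA, ESRRG, NR2F1, NR2F2, NR3C2 and RARB at least 2-fold, and all of them stood at or below 6.54 CPM in every DMSO library. So did ESR1, NR6A1, NR4A3, NR2E3 and NR1I3, which tazemetostat did not raise 2-fold. RORA and ESRRG exceeded the filter level only in libraries with tazemetostat. With both drugs the same 6 genes were again above DMSO, without overlap. The DMSO libraries were the same ones, and the share of all genes without overlap was not counted. Leaving out the A libraries gave log2 values with tazemetostat of 4.25 for RORA, 3.06 for ESRRG, 2.61 for NR2F1, 2.36 for NR2F2, 1.25 for NR3C2 and 0.96 for RARB, all still called.

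**Figure D4:**
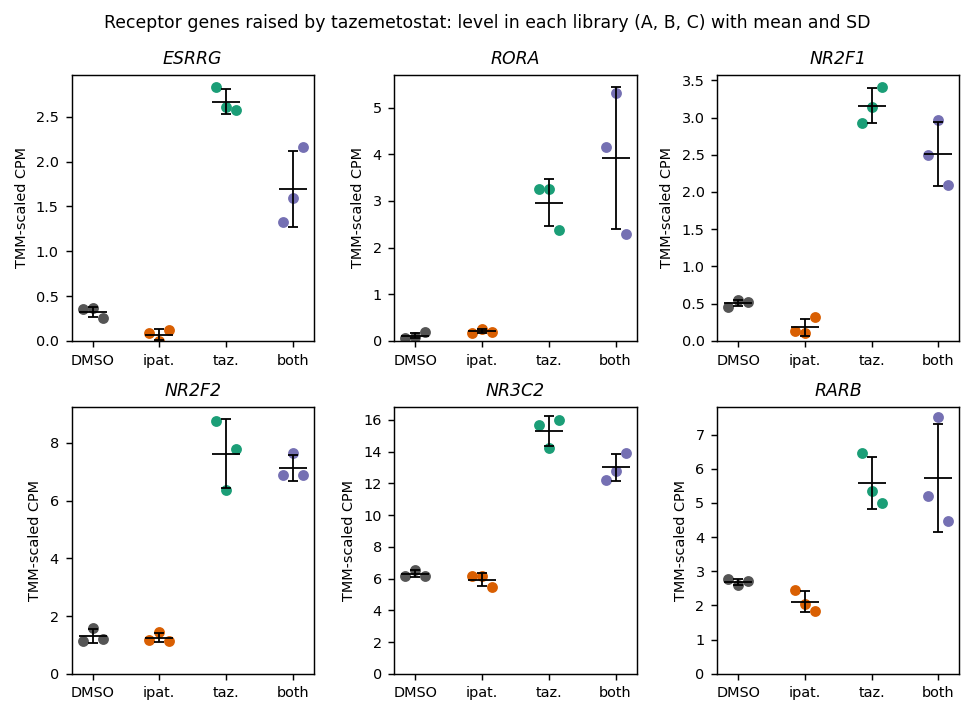
Level in CPM (linear axis from 0) of the 6 receptors that tazemetostat raised at least 2-fold, in each library from A to C, with the group mean and SD as bars. In each of the 6 genes, the libraries with tazemetostat, alone or with ipatasertib, lie above all libraries without it.

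The upstream windows of these 6 genes were not alike in CpG content. Over all 35116 upstream windows the median was 11 CpG dinucleotides, and 47.5% had an observed-to-expected CpG ratio of at least 0.6, as did 42 of the 92 receptor windows. The 4 windows of NR3C2 held 11 to 40 CpG, the 4 of RARB 1 to 28, the 8 of ESRRG 0 to 29, the 2 of NR2F2 12 to 20 and the 2 of NR2F1 2 to 8. RORA had 1 window with 1 CpG. The richest NR3C2 window, at chr4:148445323-148445572 (minus strand), and the RORA window, at chr15:60627531-60627780 (minus strand), both on GRCh38.p14, are shown as a CpG-rich and a CpG-poor example among the 6 genes, with each CG in capitals.
NR3C2: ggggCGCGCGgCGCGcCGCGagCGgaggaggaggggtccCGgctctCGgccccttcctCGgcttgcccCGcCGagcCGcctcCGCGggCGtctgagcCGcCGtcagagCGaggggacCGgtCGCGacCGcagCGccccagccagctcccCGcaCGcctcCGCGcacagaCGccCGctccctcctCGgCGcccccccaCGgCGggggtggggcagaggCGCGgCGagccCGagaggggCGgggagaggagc
RORA: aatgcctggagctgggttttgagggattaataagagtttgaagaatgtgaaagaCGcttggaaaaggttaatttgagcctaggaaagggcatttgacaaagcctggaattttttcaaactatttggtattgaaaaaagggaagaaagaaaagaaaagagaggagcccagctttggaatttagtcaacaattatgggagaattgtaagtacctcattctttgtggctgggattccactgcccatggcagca

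The AGGTCA hexamer to which many nuclear receptors bind was found, on either strand, in 13 of the 92 receptor windows (14.1%) and in 12.1% of all windows. The forkhead core GTAAACA was found in 3 of them (3.3%) and in 3% of all windows.

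The levels of markers of other cell types also differed between the groups. The summed level of 5 fibroblast markers was 9.68 to 11.6 CPM with DMSO, 5.17 to 5.49 with ipatasertib, 15.6 to 19.3 with tazemetostat and 9.48 to 11.2 with both drugs. COL1A2, DCN and LUM had no read with DMSO, and all 5 markers had reads with tazemetostat and with both drugs. The summed level of 5 leukocyte markers was 2.82 to 3.45 CPM with DMSO, 2.87 to 3.42 with ipatasertib, 3.83 to 4.15 with tazemetostat and 4.47 to 4.76 with both drugs, with CD3E and LYZ at no read with both drugs. For 4 endothelial markers it was 20.4 to 20.8, 30 to 31.4, 13.2 to 16.2 and 21.8 to 24 CPM in the same order, most of it from KDR. With tazemetostat CDH5 and VWF rose and KDR fell. CDH5 went from 0.15 CPM with DMSO (12 reads in all) to 0.924, 0.472 and 3.82 with ipatasertib, tazemetostat and both drugs. PECAM1, too low to be tested, went from 0.351 CPM (28 reads in all) to 0.323, 0.167 and 0.0717 in the same order. The part of other cell types in the receptor changes was not tested. In bulk RNA, more cells with a transcript and more transcript per cell cannot be told apart.

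Adding the second drug moved the receptors in both directions. Against ipatasertib alone, the combination raised 10 and lowered 5 of the 32 tested receptors, where 24.2% and 20.7% of all tested genes rose and fell. The median log2 difference was -0.04 for the receptors and 0.00222 for all genes. The largest rises were those of ESRRG (log2 4.39, SE 0.44), RORA (4.19, SE 0.36), NR2F1 (3.65, SE 0.32) and NR2F2 (2.52, SE 0.18), and the falls were those of VDR (log2 -0.86, SE 0.072), NR4A1 (-0.71, SE 0.16), NR2F6 (-0.55, SE 0.075), ESRRA (-0.32, SE 0.1) and NR1H3. With ipatasertib alone ESRRG had 2, 0 and 3 reads, RORA 4, 5 and 5, and NR2F1 3, 2 and 8. The sizes and order of the rises of ESRRG, RORA and NR2F1 are therefore uncertain. PPARG, low with ipatasertib alone, was 1.7-fold higher with both drugs (log2 0.76, SE 0.14, adjusted p = 9.13e-05). Without the A libraries 13 receptors rose and 10 fell, again with no share of all genes from that fit to read them beside.

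Some of these calls rested on single libraries. The fall of ESRRA was not called without ipatasertib C (log2 -0.27, adjusted p = 0.0657), combination B (log2 -0.24, adjusted p = 0.0884) or combination C (log2 -0.26, adjusted p = 0.0811). THRB, the thyroid hormone receptor beta gene, was 1.15-fold higher than with ipatasertib alone (log2 0.20, adjusted p = 0.0346), and 8 of the 12 single-library leave-outs removed that call, with log2 values of 0.16 to 0.24 over all 12. The number of receptors that fell dropped to 3 without combination B or C and was 8 without combination A.

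Against tazemetostat alone, the combination raised 9 and lowered 4 receptors, where 23.2% and 23.1% of all tested genes rose and fell. The medians were -0.05 for the receptors and 0.00232 for all genes. NR2E3 (log2 1.27, SE 0.37), NR3C1 (0.81, SE 0.075), NR1D2 (0.76, SE 0.081), NR1D1 (0.57, SE 0.1) and THRA (0.51, SE 0.11) were highest among the rises. ESRRG (log2 -0.67, SE 0.22, adjusted p = 0.0184), NR4A2 (-0.44, SE 0.13), NR2F6 (-0.33, SE 0.075) and RXRA (-0.27, SE 0.087) were the falls. RORA, NR2F1, NR2F2 and RARB did not pass the test between the combination and tazemetostat. NR3C2 missed the threshold (log2 -0.24, SE 0.098, 95% interval -0.44 to -0.04, adjusted p = 0.0503), although its groups did not overlap. It was called lower with RLE factors, library totals, the filter of 50 counts in 3 libraries, and without ipatasertib A, B or C, tazemetostat B or combination C. RORA was called without combination C. For NR2F2 the 95% interval of that log2 difference was -0.37 to 0.2.

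The fall of ESRRG below tazemetostat was not called by DESeq2 (log2 -0.67, adjusted p = 0.0521), nor without combination A (log2 -0.50, adjusted p = 0.114) or combination B (log2 -0.65, adjusted p = 0.0525). That of RXRA was lost with only the compared groups in the fit (log2 -0.26, adjusted p = 0.0519) and without tazemetostat B (log2 -0.20, adjusted p = 0.0779), combination B (log2 -0.23, adjusted p = 0.067) or combination C (log2 -0.21, adjusted p = 0.0877). NR4A2 lost its call without combination B (log2 -0.36, adjusted p = 0.054), and the rise of NR2C2 (log2 0.25) lost it without combination C (log2 0.19, adjusted p = 0.0745). Without the A libraries 8 receptors rose and 8 fell, and NR2E3 (log2 1.02, adjusted p = 0.0836) and ESRRG (log2 -0.46, adjusted p = 0.162) were not called. Here too no share of all genes from that fit stands beside the counts. The number that fell was 7 without tazemetostat A and 1 without combination B.

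The interaction term asks where the effect of both drugs departed from the sum of the single-drug effects on the log2 scale. Of the 32 receptors 1 lay above the sum and 3 below it, where 5.96% and 6.01% of all tested genes did so. The median was -0.20 for the receptors and -0.0157 for all genes. PPARG lay above the sum (log2 0.60, SE 0.18, 95% interval 0.23 to 0.97, adjusted p = 0.0327). RXRB (log2 -0.44, SE 0.12, adjusted p = 0.0206), RXRA (-0.41, SE 0.12, adjusted p = 0.0334) and PPARA (-0.41, SE 0.13, adjusted p = 0.0383) lay below it. ESRRG (1.37, SE 0.65, adjusted p = 0.163) and NR2F1 (1.02, SE 0.46, adjusted p = 0.143), which fell with ipatasertib and rose with tazemetostat, did not pass this test.

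Behind these terms, RXRA stood at 63, 65.5 and 64.4 CPM with DMSO alone, 72.7, 70.6 and 69.4 with ipatasertib, 70.2, 87.7 and 80.9 with tazemetostat and 75.9, 61.7 and 60.7 with both drugs. RXRB stood at 56.9, 52.6 and 54.2 CPM with DMSO alone, 77.6, 71.6 and 76.2 with ipatasertib, 58.3, 71.4 and 68.6 with tazemetostat and 75.2, 63.7 and 62.4 with both drugs. In both genes tazemetostat A was the lowest of its group and combination A the highest. Without the A libraries, 3 receptors lay above the sum and 14 below it, with RXRA at -0.57, RXRB at -0.62, PPARA at -0.41 and PPARG at 0.51 (log2, all called). Calls over all genes grew in that fit as well, from 869 to 2605 above the sum and from 875 to 2847 below it. With 1 library left out at a time, however, RXRA lost its call in 9 of 12 cases, PPARG in 8, RXRB in 7 and PPARA in 7. With the replicate letter as a block only RXRB was still called, and the adjusted p was 0.0598 for PPARG, 0.0647 for RXRA and 0.068 for PPARA. Scaling by library totals moved the share of all interaction calls that lay above the sum from 49.8% to 33.6%, and the 4 receptor calls kept their direction.

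**Figure D5:**
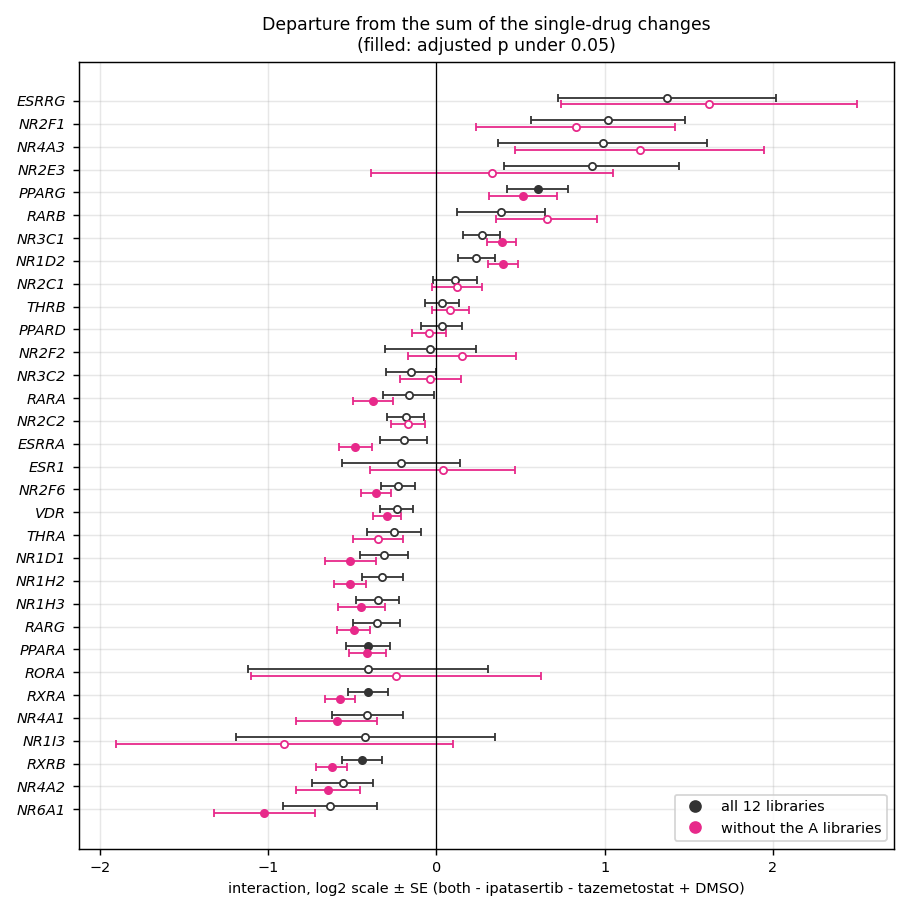
Departure of the combination from the sum of the single-drug log2 changes, with its standard error, for the 32 tested receptors with all 12 libraries (dark) and without the A libraries (pink). Filled points passed an adjusted p of 0.05, 4 with all libraries and 17 without the A libraries; a replicate block, not drawn, left 1 of the 4.

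Receptor proteins act through coregulators, and several of those genes changed too. The medians given for each gene group from here on are log2 fold changes with ipatasertib, tazemetostat and both drugs in that order, to be read beside 0.00386, 0.00899 and 0.0305 over all tested genes. The counts of rises and falls are to be read beside the shares of all tested genes that rose and fell, 24% and 23.1% with ipatasertib, 25.9% and 21.3% with tazemetostat, and 34.4% and 30% with both drugs. Of 15 coactivator genes, 9 rose and 2 fell with ipatasertib, 8 rose and 3 fell with tazemetostat, and 9 rose and 4 fell with both drugs, with median log2 fold changes of 0.23, 0.18 and 0.33. PPARGC1A, the coactivator PGC-1 alpha that drives mitochondrial genes with the PPAR and estrogen-related receptors, went from 0.958 CPM ± 0.29 with DMSO to 1.45 ± 0.155 with ipatasertib, 13.4 ± 0.877 with tazemetostat and 22 ± 2.95 with both drugs (SD, n = 3; log2 0.62, 3.81 and 4.52). NCOA7 rose to 323 CPM ± 25.7 with both drugs from 120 ± 3.86 (log2 1.43, SE 0.078), and NCOA2, a steroid receptor coactivator, rose by a log2 of 0.81 (SE 0.098). Of 10 corepressor genes, 3 rose and 1 fell with ipatasertib, 3 rose and 2 fell with tazemetostat, and 4 rose and 3 fell with both drugs (medians 0.11, 0.05 and 0.16). TBL1X, a subunit of the NCoR complex, rose with both drugs by 0.85 (log2, SE 0.072), NRIP1 by 0.66 (SE 0.081), and SIN3A rose with ipatasertib by 0.48 (SE 0.076).

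Known target genes of the steroid and vitamin D receptors moved in mixed directions. Of 12 tested glucocorticoid receptor targets, 7 rose and 3 fell with ipatasertib, 5 rose and 4 fell with tazemetostat, and 7 rose and 2 fell with both drugs (medians 0.38, 0.20 and 0.45). With both drugs SGK1, a kinase of sodium transport, rose by a log2 of 1.27 (SE 0.066), the metallothionein MT2A by 1.09 (SE 0.08) and the transcription factor KLF9 by 1.05 (SE 0.12). FKBP5, a chaperone of the receptor and one of its best-known targets, was named after its values were seen: it fell with ipatasertib (log2 -0.72, SE 0.067) and with both drugs (log2 -0.66, SE 0.068). Of 7 tested estrogen receptor targets none rose and 2 fell with ipatasertib, 5 rose and 1 fell with tazemetostat, and 3 rose and 3 fell with both drugs (medians -0.03, 0.41 and 0.57). With tazemetostat CA12, a carbonic anhydrase, rose by 1.15 (SE 0.32) and GREB1 by 0.93 (SE 0.26), both below 1.5 CPM on average in that group, while IGFBP4 fell by 0.82 (SE 0.067), on the log2 scale. Of 3 tested vitamin D receptor targets, IGFBP3 rose with ipatasertib and TRPV6 (log2 -0.19, adjusted p = 0.0778) and CD14 (log2 0.16, adjusted p = 0.147) did not pass the test, TRPV6 rose and CD14 fell with tazemetostat, and with both drugs TRPV6 and IGFBP3 rose and CD14 fell, all by less than 0.5 on the log2 scale (medians 0.16, -0.11 and 0.26).

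Of 8 tested retinoic acid targets, 3 rose and 1 fell with ipatasertib, 5 rose and 1 fell with tazemetostat, and 4 rose and 2 fell with both drugs (medians 0.07, 0.34 and 0.25). DHRS3, which reduces retinal to retinol, went from 69.5 CPM ± 2.17 with DMSO to 149 ± 9.97, 183 ± 4.47 and 333 ± 39.8 with ipatasertib, tazemetostat and both drugs (log2 1.10, 1.40 and 2.26). CRABP2, the carrier that brings retinoic acid to its receptors, fell from 902 CPM ± 73.5 to 405 ± 43.5 with ipatasertib (log2 -1.16, SE 0.079) and to 415 ± 21.8 with both drugs (log2 -1.12, SE 0.079). Of 11 tested retinoid handling genes, some of which, such as DHRS3 and CRABP2, are also in the target list, 4 rose and 4 fell with ipatasertib, 6 rose and 1 fell with tazemetostat, and 6 rose and 3 fell with both drugs (medians -0.06, 0.35 and 0.26). LRAT, which esterifies retinol, rose from 1.02 CPM ± 0.143 to 7.99 ± 1.16 with tazemetostat (log2 2.93, SE 0.18). ALDH1A3, which makes retinoic acid, rose from 636 CPM ± 8.55 to 1890 ± 78.2 with both drugs (log2 1.57, SE 0.066).

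Targets of the lipid sensors were mixed as well. Of 9 tested PPAR targets, 2 rose and 2 fell with ipatasertib, 2 rose and 1 fell with tazemetostat, and 2 rose and 4 fell with both drugs (medians -0.06, 0.08 and -0.11), and the share that rose with ipatasertib was near that of all genes. PDK4, a brake on glucose oxidation, stood at 0.229 CPM ± 0.0514 with DMSO alone, 2.39 ± 0.201 with ipatasertib, 2.14 ± 0.101 with tazemetostat and 18.4 ± 1.36 with both drugs (log2 3.32, 3.17 and 6.26). CD36, a fatty acid transporter and a target of PPARG, fell with ipatasertib from 0.736 CPM ± 0.134 to 0.0263 ± 0.0455, under the level of 3 reads. It stood at 0.832 ± 0.194 with tazemetostat and 0.102 ± 0.0892 with both drugs, where PPARG was near its DMSO level. A link between the 2 genes was not tested. CPT1A fell with both drugs by 0.38 (log2, SE 0.1). Of 7 tested liver X receptor targets, 1 rose and 2 fell with ipatasertib, 3 rose and none fell with tazemetostat, and 2 rose and 4 fell with both drugs (medians -0.36, 0.13 and -0.25). ABCA1, a cholesterol exporter, rose with tazemetostat by 1.17 (log2, SE 0.15), while with both drugs APOE rose by 1.60 (SE 0.32) and APOC1 fell by 0.73 (SE 0.27), both below 2 CPM on average.

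Most of the listed targets of the estrogen-related receptors fell with each treatment. The list is short and was chosen with earlier results of these data known, so it does not stand for all targets of these receptors. Of 7 tested targets, all of them mitochondrial enzymes or carriers, none rose and 6 fell with ipatasertib, 1 rose and 4 fell with tazemetostat, and none rose and 6 fell with both drugs, where 23.1%, 21.3% and 30% of all genes fell. The medians were -0.30, -0.19 and -0.53. CYCS, cytochrome c, fell from 671 CPM ± 29.4 to 323 ± 7.39 with ipatasertib (log2 -1.05, SE 0.068), and with both drugs ATP5B and SDHB fell by 0.61 (SE 0.059) and 0.56 (SE 0.073) on the log2 scale.

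Of 14 clock genes, 5 rose and 1 fell with ipatasertib, 5 rose and 3 fell with tazemetostat, and 6 rose and 3 fell with both drugs (medians 0.05, 0.13 and 0.17). With both drugs NPAS2, a partner of BMAL, rose from 10.4 CPM ± 0.516 to 36.7 ± 2.94 (log2 1.82, SE 0.093). BHLHE41, an E-box repressor, rose by 1.32 (SE 0.071), and HLF fell by 1.02 on the log2 scale (SE 0.11).

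Genes that set hormone supply were called in both directions. Of 14 tested steroid metabolism genes, 4 rose and 4 fell with ipatasertib, 4 rose and 3 fell with tazemetostat, and 4 rose and 6 fell with both drugs (medians -0.01, -0.04 and -0.15), and the shares that rose with the single drugs were near those of all genes. With both drugs STS, the sulfatase that frees steroids from their sulfates, rose by 1.66 (log2, SE 0.071) and SULT1E1, the estrogen sulfotransferase, by 2.35 (SE 0.24), while SULT2B1, a cholesterol sulfotransferase, fell by 1.60 (SE 0.084). Of 5 tested thyroid hormone and vitamin D metabolism genes, none rose and 1 fell with ipatasertib, 4 rose with tazemetostat and 2 rose with both drugs (medians -0.04, 0.62 and 0.28). With tazemetostat the activating deiodinase DIO2 rose by 0.77 (log2, SE 0.23) and CYP27A1 by 0.54 (SE 0.069).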

How the data were processed

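For each of the 12 libraries, a table of raw read counts by gene symbol was deposited by the authors. Per the submitters' processing notes, the build was hg19 and the tools were STAR, HTSeq, SAMtools and DESeq2; no source used here gives versions, the annotation or the strand setting. Per the labels' protocols, an RNeasy Plus kit served for RNA and Kapa Hyper Prep for the libraries. A normalized table of the whole series, with 12 columns of values, was not used.

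Counts of 23228 genes, 3351 of them without a read, were tested with edgeR 4.0.16 (R 4.3.3). Lines that name no gene were left out of library sizes; their largest class took 18.25% to 26.22% of counted reads. Genes were kept by filterByExpr (minimum count 10), which left 14571. TMM factors, 1 mean per group over all 12 libraries (8 residual degrees of freedom) and robust quasi-likelihood F-tests were used, with Benjamini-Hochberg adjustment over all tested genes and a threshold of 0.05. CPM values use TMM-scaled totals; SE is that of the log2 fold change, and intervals are 95%. The procedure was tested on simulated data. Floors of 3 counts reflect counting error alone: without molecular identifiers, reads may be copies of the same molecule.

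The receptors and all other gene lists were chosen with earlier results of these data known. Values in every library are given for receptors with an adjusted p under 0.05 and a log2 change of at least 0.58 against DMSO, and up to 3 genes of each of 13 other lists are named by size of change; a few genes that these rules would name are not reported here. Other settings tried were DESeq2 1.42.0, scaling by RLE factors or by library totals, a filter of 50 counts in 3 libraries or none, a fit of the compared groups only, a block for the replicate letter, leaving out each library and, added after seeing the data, leaving out all A libraries. Over genes of at least 5 CPM, the deviations of same-letter ipatasertib and DMSO libraries correlated at 0.114 to 0.422. As this was over 0.1 in 3 of 3 pairs, the letters were taken to pair these groups, and no other groups met this. Only the A pair was the best match of its libraries. DMSO B correlated more with ipatasertib C (0.209) than B (0.139), and DMSO C more with ipatasertib B (0.151) than C (0.114). The p-values given are from the fit without pairing unless the block is named. Upstream windows, credited to RefSeq on GRCh38.p14, and GENCODE v29 exons are of another build than the counts and were joined by symbol only.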

Additional observations from a re-analysis of the deposited data

Results flagged for a closer look

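For 4 receptor genes the effect of 1 drug differed with and without the other, by the interaction term of the fit. Of the 32 tested receptors 1 lay above the sum of the single-drug effects and 3 below it, where 5.96% and 6.01% of all tested genes did so. PPARG lay above the sum of the single-drug effects (0.602 on the log2 scale, adjusted p = 0.0327): it fell with ipatasertib in DMSO-treated cells and stood near its DMSO level with both drugs. RXRA (-0.407, adjusted p = 0.0334), RXRB (-0.44, adjusted p = 0.0206) and PPARA (-0.405, adjusted p = 0.0383) lay below the sum. With the replicate letter as a block the values were 0.60, -0.41, -0.44 and -0.40, and only RXRB was still called; the adjusted p was 0.0598 for PPARG, 0.0647 for RXRA and 0.068 for PPARA. Each of the 4 was also called by DESeq2 and without the A libraries, a setting added after seeing the data. With 1 library left out at a time, RXRA lost its call in 9 of 12 cases, PPARG in 8, RXRB in 7 and PPARA in 7.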

How the results depend on the processing

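No receptor call against DMSO changed direction in the settings that tested it (ESRRG could not be tested for ipatasertib with only the compared groups, nor NR2E3 with a filter of 50 counts), and RLE factors removed no receptor call and added NR4A3 with ipatasertib and NR3C2 between the combination and tazemetostat. Leaving out 1 library at a time gave 3 to 8 receptors lower in the combination than with ipatasertib (5 in the full fit) and 1 to 7 lower than with tazemetostat (4), 0 to 3 above the interaction sum (1) and 0 to 9 below it (3), with 357 to 2017 of all genes above (869) and 262 to 1726 below (875). With no filter 7 receptors were lower than with tazemetostat and 6 lay below the sum. Library totals put 6 receptors and 1369 genes below the sum. Without the A libraries 10 receptors were lower than with ipatasertib, 8 lower than with tazemetostat, 3 above and 14 below the sum, with 2605 genes above and 2847 below. With the replicate block 0 receptors lay above the sum and 1 below it (3 and 8 at an unadjusted p under 0.05), with 533 genes above and 479 below. The block also removed the THRB call against ipatasertib (adjusted p = 0.0655) and changed no other receptor call. Outside ipatasertib and DMSO the letters are only a number, and only 1 of the 3 ipatasertib libraries correlated best with the DMSO library of its own letter. The causes were not tested. Few reads limit ESRRG, RORA and NR2F1 with DMSO and ipatasertib, and NR2E3 in all groups.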
